A study of Mus musculus with 6 samples.

Results

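Colony-stimulating factor 1 (Csf1), interleukin-34 (Il34) and their shared receptor (Csf1r) were examined in a mouse mammary carcinoma line, 410.4, exposed to neutrophil extracellular traps (NETs). NETs are chromatin fibres studded with granule enzymes that neutrophils cast out when activated. The 3 genes were taken by symbol from a table of 55809 gene symbols, and all 3 passed the filter on low counts that left 13956 genes for testing. They were picked as a possible autocrine loop with results of this comparison already known, so their differences between the media are given as a description, without a p-value.

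RNA sequencing covered 3 libraries of 410.4 cells in NET-conditioned medium (called NETs) and 3 in control medium (called Veh, as in the sample titles). Both media were DMEM with 0.5% serum, and exposure lasted 2 days. By its title the study asked about NETs that arise under chemotherapy and TGF-beta activation in metastatic breast cancer. Both groups are the same cell line, neither carries a listed genetic change, and the labels do not say whether the libraries come from separate cultures.

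CSF1 and IL-34 are secreted cytokines that bind the same receptor tyrosine kinase, CSF1R, which drives the survival, proliferation and differentiation of monocytes and macrophages. CSF1 is made as secreted and membrane-spanning forms, and IL-34 is best known from keratinocytes and neurons. In breast tumours CSF1 from carcinoma cells is known for attracting and sustaining macrophages, and carcinoma cells themselves can carry CSF1R. The counts were made per gene and do not separate the splice forms of CSF1.

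The promoter of Csf1 is shown because Csf1 was the more abundant of the ligands and the one with the higher level in NETs. Of the 3 genes, 1 (Csf1) matched the RefSeq promoter table. The sequence runs from 250 bases before to 50 bases after a RefSeq start of Csf1 (GRCm38.p6, chr3:107760420-107760719, minus strand), 5′ to 3′ in the direction of the gene, with a match to the kappaB consensus in capitals.
Csf1 promoter: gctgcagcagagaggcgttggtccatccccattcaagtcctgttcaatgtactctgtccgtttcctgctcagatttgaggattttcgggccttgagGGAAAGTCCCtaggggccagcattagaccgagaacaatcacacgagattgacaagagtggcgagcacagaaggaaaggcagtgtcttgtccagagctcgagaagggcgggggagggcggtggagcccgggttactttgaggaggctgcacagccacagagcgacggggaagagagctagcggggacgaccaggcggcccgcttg
The kappaB consensus was searched on both strands and matched once, on the strand opposite to the one printed, starting 154 bases before the start site. It matched in 1480 of 32851 mouse promoters of this length, 4.51% of them. The AP-1 element TGANTCA and the CAGA box CAGACA, a SMAD element, had no match in this window on either strand, and occurred in 7.81% and 21.0% of the promoters. Since neither had a match, no other searched motif could overlap the kappaB match. The kappaB element binds NF-kB dimers, and a match of letters describes the sequence only.

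Csf1, the growth factor of macrophages, was higher with NETs. It had 10428, 6572 and 11548 counts in NETs replicates 1 to 3, against 8125, 5331 and 6969 counts in Veh replicates 1 to 3. After TMM scaling, the levels in CPM (counts relative to library size) were 232.7, 218 and 224 in NETs and 122, 118 and 126.5 CPM in Veh. Every NETs library lay above every Veh library, and the replicates of a group differed by little. The means were 225 ± 7.26 CPM in NETs and 122 ± 4.31 CPM in Veh (SD, n = 3 each), a 1.84-fold difference (log2 fold change 0.88 ± 0.05, standard error).

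Il34, the other ligand of the receptor, was slightly lower with NETs. It had 867, 592 and 986 counts in NETs, against 1437, 1071 and 1178 counts in Veh. These were 19.3, 19.7 and 19.1 CPM in NETs, against 21.6, 23.7 and 21.4 CPM in Veh. The groups did not overlap, but the gap between the highest NETs library and the lowest Veh library was smaller than the range of the Veh libraries. The means were 19.4 ± 0.275 CPM in NETs and 22.2 ± 1.27 CPM in Veh, 1.15-fold lower in NETs (log2 fold change -0.20 ± 0.07).

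Csf1r, the receptor kinase, differed most of the 3. It had 3483, 2308 and 4453 counts in NETs, against 1493, 1120 and 1380 counts in Veh. These were 77.7, 76.6 and 86.3 CPM in NETs, against 22.4, 24.8 and 25.1 CPM in Veh. The lowest NETs library stood far above the highest Veh library, and NETs replicate 3 was the highest of all. The means were 80.2 ± 5.30 CPM in NETs and 24.1 ± 1.43 CPM in Veh, a 3.34-fold difference (log2 fold change 1.74 ± 0.07). In bulk RNA, more expressing cells and more RNA per cell cannot be told apart.

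**Figure D1:**
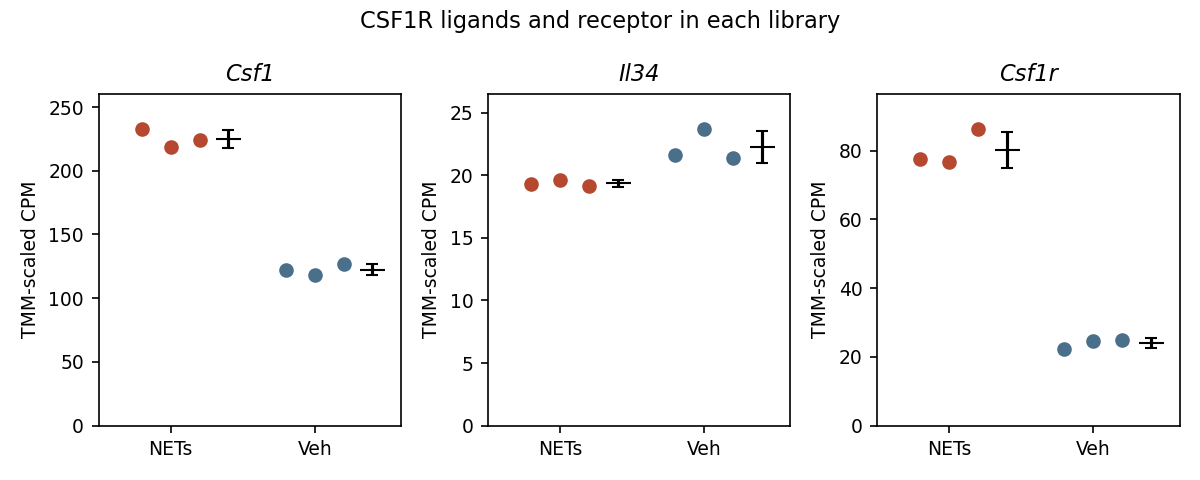
TMM-scaled CPM (y axis, from 0) of Csf1, Il34 and Csf1r in each of the 3 NETs and 3 Veh libraries (points), with the mean and SD beside them. Csf1 and Csf1r sit higher in every NETs library and Il34 sits slightly lower.

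Among all 13956 tested genes, 2825 rose (20.2%) and 2605 fell (18.7%), 38.9% in all, by the quasi-likelihood test of edgeR at a Benjamini-Hochberg adjusted p of 0.05. Higher calls were 52.0% of all calls, and 35.9% when libraries were scaled by their totals alone. The groups did not overlap at 49.0% of the genes (higher in NETs at 24.4%, lower at 24.5%), so the absence of overlap at all 3 members is a frequent pattern here. A log2 fold change as high as that of Csf1r was met or passed by 216 tested genes (1.55%). That of Csf1 was met or passed by 675 genes (4.84%), while 24.7% of the genes had a log2 fold change as low as that of Il34 or lower. These shares describe the genes' places and were not tested, since the genes were chosen from this comparison.

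**Figure D2:**
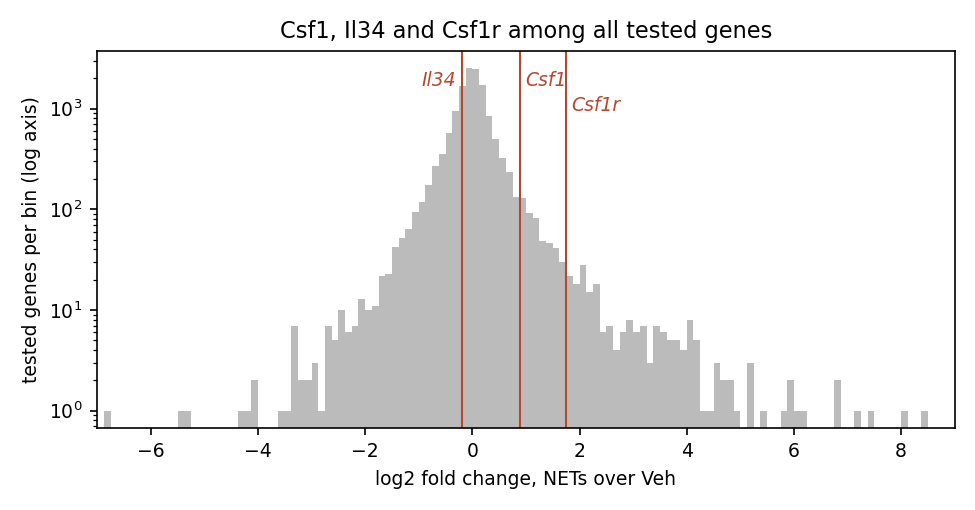
Number of tested genes (y axis, log scale) by log2 fold change of NETs over Veh (x axis), with vertical lines at Il34 (-0.20), Csf1 (0.88) and Csf1r (1.74). Csf1r lies in the upper tail, Csf1 on its shoulder and Il34 within the central mass.

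Levels of the 3 genes were compared per length, as CPM per kilobase of exon (RPKM). Csf1 had 42.6 ± 1.38 RPKM in NETs and 23.1 ± 0.816 RPKM in Veh, a higher level than 91.3% of tested genes in NETs and than 82.5% in Veh. Csf1r had 13.9 ± 0.918 RPKM in NETs and 4.17 ± 0.248 RPKM in Veh, above 70.9% of tested genes in NETs and 42.2% in Veh. Il34 had 9.89 ± 0.141 RPKM in NETs and 11.4 ± 0.649 RPKM in Veh. The order of levels was thus Csf1, Csf1r, Il34 in NETs and Csf1, Il34, Csf1r in Veh, and in neither medium did the values of neighbours in that order overlap between libraries.

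The ratios within each library show how the ligands and the receptor stood to one another, free of library scaling. Csf1 exceeded Csf1r per length by 3.27, 3.11 and 2.835 times in NETs, against 5.95, 5.20 and 5.52 times in Veh. Csf1 exceeded Il34 by 4.31 ± 0.175 times in NETs and 2.05 ± 0.180 times in Veh. The ratio of Csf1r to Il34 was 1.41 ± 0.111 in NETs and 0.368 ± 0.0253 in Veh. The receptor therefore gained on both ligands, and Csf1 made up 81.2 ± 0.627% of the summed ligand RPKM in NETs and 67.1 ± 1.99% in Veh. Csf1 and Il34 together came to 52.5 ± 1.32 RPKM in NETs and 34.5 ± 0.365 RPKM in Veh. These are levels of RNA and say nothing of protein, cleavage or receptor activity.

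**Figure D3:**
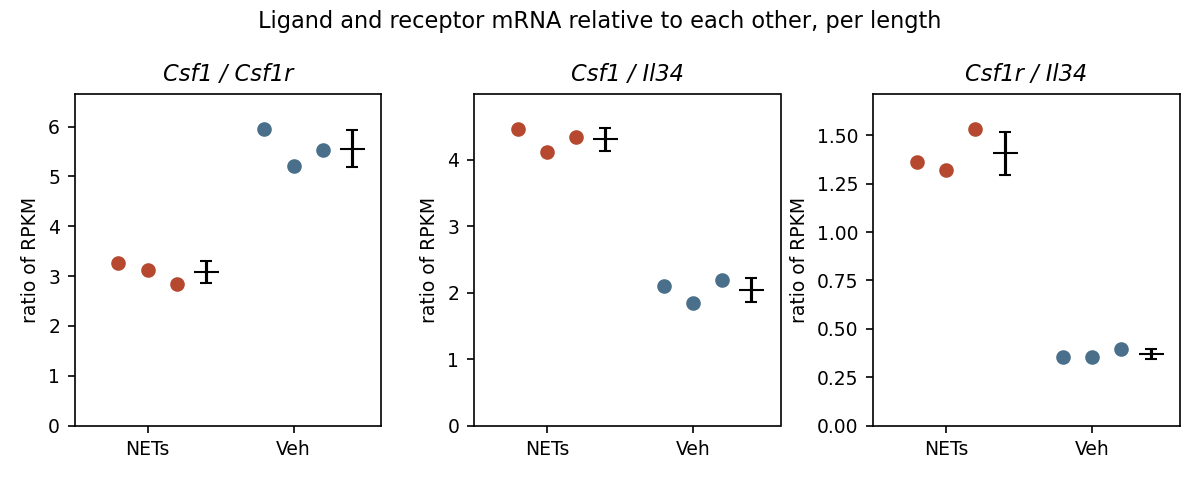
Ratios of RPKM within each library (y axis, from 0) for Csf1 over Csf1r, Csf1 over Il34 and Csf1r over Il34, in 3 NETs and 3 Veh libraries (points) with mean and SD. The ratio of Csf1 to Csf1r is lower in NETs (3.07 ± 0.222 in NETs against 5.56 ± 0.374 in Veh), and the other ratios are higher in NETs.

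Csf1r is a defining gene of macrophages, so the markers of other cells were read beside it. The epithelial markers Epcam, Cdh1, Krt8, Krt18, Krt19 and Cldn4 were all present, with a summed level of 3840 to 4070 CPM in NETs and 3590 to 3840 CPM in Veh, 28.1% of it from Krt18. They moved apart: the tight-junction gene Cldn4 rose 2.09-fold to 789 ± 12.3 CPM in NETs against 378 ± 50.6 CPM in Veh (adjusted p = 1.15e-07) and Krt8 rose 1.19-fold, while Krt18 was 1.21-fold lower and Cdh1, the gene of E-cadherin, 1.10-fold lower. Without Cldn4, taken out after its values were seen, the sum was 3060 to 3270 CPM in NETs and 3260 to 3470 CPM in Veh.

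Of 16 macrophage markers, 4 passed the low-count filter, and the sum of the list was 33.7 to 37.9 CPM in NETs and 31.7 to 37.5 CPM in Veh, 63.0% of it from Cd14. The macrophage genes Adgre1, Tyrobp, C1qb and C1qc had no count in any library, and Lyz2, Fcgr1, C1qa and Laptm5 had at most 6 counts in each. A count of 0 allows up to 0.199 CPM in the least deep NETs library and 0.133 CPM in the least deep Veh library, for counting error only. Fcer1g was low but higher in every NETs library, with 7, 6 and 12 counts in NETs against 3, 0 and 0 counts in Veh. Ptprc, the pan-leukocyte gene of CD45, had no count in NETs and 6, 2 and 8 counts in Veh. Itgam and Mpeg1 had at most 10 counts in any library. Of the markers that passed the filter, Cd14 had 23.6 ± 1.77 CPM in NETs and 20.7 ± 0.951 CPM in Veh, and Cd68 had 10.7 ± 0.571 CPM in NETs and 12.4 ± 2.02 CPM in Veh, and neither passed the test. Mrc1 fell at a low level (0.405 CPM in NETs, 1.05 CPM in Veh, adjusted p = 0.00169). Aif1 had 27, 20 and 25 counts in NETs against 10, 8 and 13 counts in Veh, and since it passed the filter only through the NETs libraries no test is given for it. The part of these transcripts in the value of Csf1r was not tested.

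Neutrophil markers were read as well, because neutrophils made the NETs. Of 13 markers 7 had no count in any library, among them Elane, Ctsg, Camp, Ngp and Csf3r. The sum of the list was 3.06 to 3.41 CPM in NETs and 1.62 to 2.08 CPM in Veh, 78.2% of it from S100a8, which rose to 2.63 ± 0.148 CPM in NETs, against 1.38 ± 0.300 CPM in Veh (adjusted p = 0.00136). Cxcr2, the other marker that passed the filter, also leaned higher at a low level and did not pass the test (adjusted p = 0.0575). It had 24, 18 and 16 counts in NETs, against 16, 10 and 11 counts in Veh. The lineage marker Ly6g ran the other way at a very low level, with no count in NETs and 8, 6 and 6 counts in Veh. The part of these transcripts in the values of Csf1 and Csf1r was not tested.

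The tested neighbours of Csf1 and Csf1r did not pass the test, and some of those of Il34 did. Positions are those of the deposited table, whose build is not settled: the submitters' notes name mm10, but none of the 3 spans overlaps its GRCm38.p6 position. Csf1 spans positions 107648364 to 107667785 of chromosome 3, Csf1r 61233670 to 61265221 of chromosome 18 and Il34 111468461 to 111532556 of chromosome 8, exons and introns included. Within 100000 bases of Csf1 the only tested gene, Ahcyl1, had 197 ± 8.90 CPM in NETs and 187 ± 3.06 CPM in Veh (adjusted p = 0.236). Near Csf1r, the related receptor gene Pdgfrb had 2 counts in each NETs library and 0 to 4 in the Veh libraries. Hmgxb3 lies on the other strand, and 873 of the 5774 exon bases of Csf1r (15.1%) also belong to its exons. Hmgxb3 had 80.9 ± 1.96 CPM in NETs and 76.1 ± 1.71 CPM in Veh and did not pass the test (adjusted p = 0.175). Whether counting used the strand is not stated in the labels or notes, so reads of that stretch are uncertain, as are those of the 75 bases that Il34 shares with Gm15895. Of 5 tested neighbours of Il34, Vac14 and Mtss2 rose, by 0.20 and 0.75 on the log2 scale. Among all tested genes 20.2% rose.

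**Figure D4:**
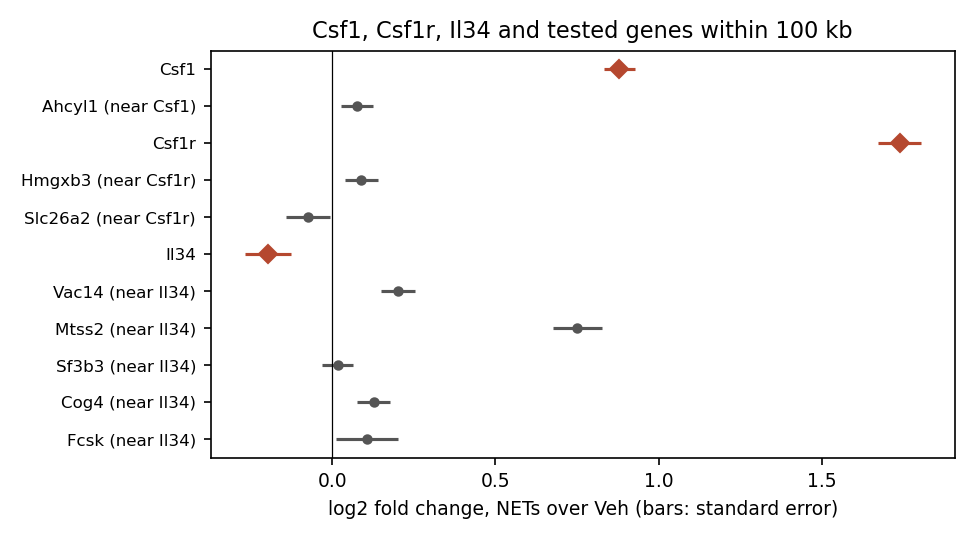
Log2 fold change of NETs over Veh (x axis, bars are standard errors) for Csf1, Csf1r and Il34 (diamonds) and the tested genes within 100000 bases of each (circles). The neighbours of Csf1 and Csf1r lie near 0, from -0.07 to 0.09.

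The genes whose profile over the 6 libraries was most like that of Csf1 were sought among 10080 tested genes averaging 5 CPM or more, by root mean square distance between centred log2 CPM. The closest were Adarb1, an RNA-editing enzyme (distance 0.0274), Ttc39c (0.0304), the kinase Stk38l (0.0334), Ivns1abp (0.0392) and Erfe, the gene of the iron hormone erythroferrone (0.0423). Adarb1 had 67.0 ± 1.67 CPM in NETs and 35.1 ± 1.47 CPM in Veh. Erfe had 103 ± 5.79 CPM in NETs and 55.9 ± 0.415 CPM in Veh. The distance was 0.435 for Csf1r and 0.545 for Il34, which ranked 4481 and 7977. With 2 groups of close replicates, this distance mostly follows the size of the log2 fold change. That size was 0.86 to 0.94 in the 5 closest genes and 0.88 in Csf1. Csf1r also rose in every NETs library, by 1.74, so its rank reflects a larger rise and not an opposite one. The ranking restates the comparison from which Csf1 was chosen.

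Other genes around the receptor were described from 10 lists that together held 101 genes, of which 79 were tested. Of these 22 rose and 18 fell, 50.6% of those tested, beside 38.9% of all tested genes. The lists were chosen with earlier results of these data known, and the difference between these shares was not tested. The median log2 fold change was -0.0034 over the lists and -0.00385 over all tested genes. The lists were ordered by role, with adjusted p-values from edgeR over all tested genes, and 26 of the 79 genes have exons that overlap another gene.

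**Figure D5:**
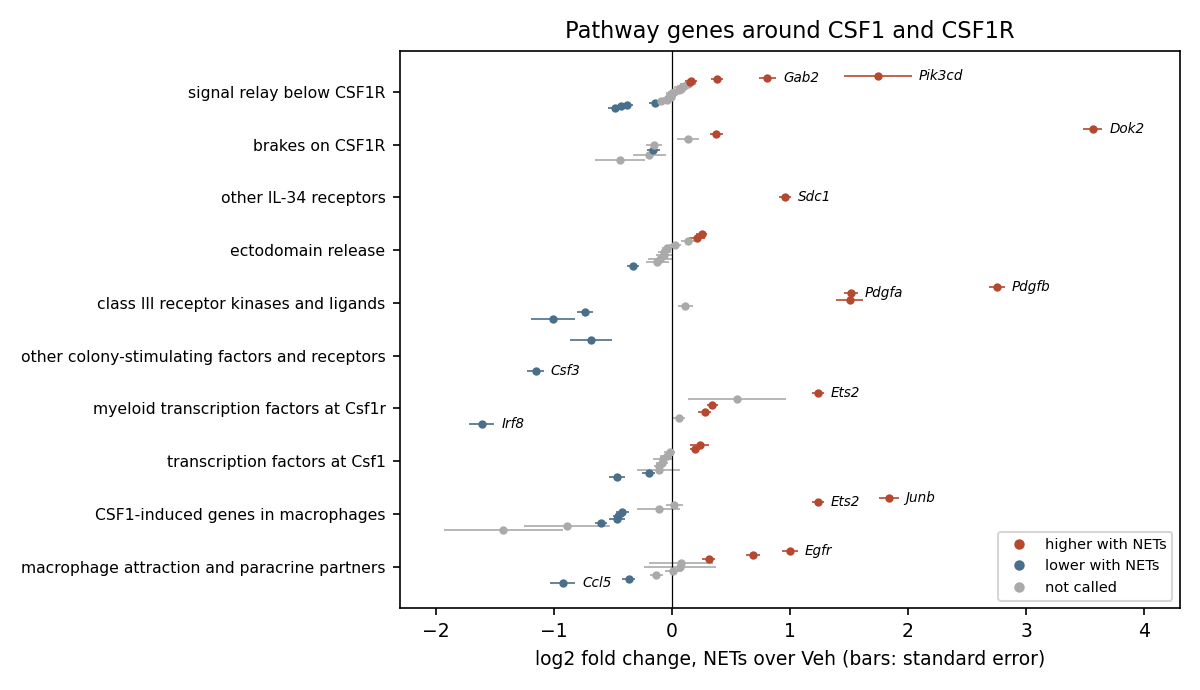
Log2 fold change of NETs over Veh (x axis, bars are standard errors) for the tested genes of each of the 10 lists (rows), coloured by call at an adjusted p of 0.05 in edgeR. Dok2 (3.56) and Pdgfb (2.75) lie farthest to the right and Irf8 (-1.61) farthest to the left.

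Enzymes that free membrane-bound CSF1 and cut the receptor moved by small amounts. Adam17, the sheddase of both the membrane form of CSF1 and of CSF1R, was 1.25-fold lower with NETs (adjusted p = 4.34e-05). It had 151 ± 5.96 CPM in NETs, against 189 ± 5.98 CPM in Veh. All NETs libraries lay below all Veh libraries, as at 24.5% of all tested genes. The related protease gene Adam10 was 1.19-fold higher at 279 ± 6.19 CPM in NETs, against 234 ± 7.20 CPM in Veh (adjusted p = 0.000374). Of 10 tested genes 2 rose and 1 fell (30.0% called, beside 38.9% of all tested genes). The median log2 fold change was -0.05. The third call, of the iRhom-binding gene Frmd8 (log2 fold change 0.21), ended without NETs replicate 1 (0.18), Veh replicate 1 (0.21) or Veh replicate 3 (0.14), and when libraries were scaled by their totals alone (0.14). The gamma-secretase genes Psen2, Ncstn, Aph1a and Psenen did not pass.

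The receptors named for IL-34 besides CSF1R are the phosphatase PTPRZ1 and the proteoglycan syndecan-1. Sdc1 rose 1.94-fold, to 1158 ± 2.88 CPM in NETs against 596 ± 35.6 CPM in Veh (adjusted p = 1.90e-10). Ptprz1 had at most 2 counts in any library and was not tested.

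Adaptors and kinases that relay the signal of CSF1R moved both ways. Of 25 listed genes 21 were tested, 5 rose and 4 fell (42.9% of those tested, beside 38.9% of all tested genes). The median log2 fold change was 0.02. Gab2, a docking adaptor of PI3 kinase, rose 1.75-fold to 30.7 ± 2.37 CPM in NETs against 17.6 ± 1.03 CPM in Veh (adjusted p = 1.97e-07). The leukocyte PI3 kinase subunit Pik3cd rose 3.355-fold at a low level, 1.78 ± 0.304 CPM in NETs against 0.523 ± 0.150 CPM in Veh. Among the falls were Plcg2, a phospholipase (1.40-fold lower at 205 ± 11.8 CPM in NETs against 287 ± 15.7 CPM in Veh), and the Src-family kinase Lyn (1.35-fold lower). The general relay genes Grb2, Sos1, Pik3ca and Mapk3 did not pass, with log2 fold changes from -0.0034 to 0.06. The macrophage signalling genes Syk and Tyrobp had no count in any library, and the myeloid Src-family gene Fgr had at most 12. The call of Src (0.16) ended without NETs replicate 2 (0.145) or Veh replicate 1 (0.13), and with scaling by library totals alone (0.09).

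Among genes that restrain the receptor, Dok2 stood apart in size. DOK2 is a docking protein, best known from blood cells, that recruits negative regulators to tyrosine kinases. Dok2 had 57.05, 51.2 and 51.1 CPM in NETs, against 4.13, 4.80 and 4.63 CPM in Veh, an 11.8-fold rise (adjusted p = 2.09e-15). The groups were far apart. Cblb, a ubiquitin ligase of the family that marks the receptor for degradation, rose 1.30-fold. Of 7 tested genes 2 rose and 1 fell (42.9% called, beside 38.9% of all tested genes). The median log2 fold change was -0.15. The fall of Dok1 (-0.16) was lost without NETs replicate 3 (-0.13), Veh replicate 1 (-0.16) or Veh replicate 2 (-0.15). Cbl, Ptpn6 and Socs1 did not pass, and Inpp5d, the gene of a leukocyte phosphatase, had at most 8 counts in any library.

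CSF1R belongs to the class III receptor kinases, with KIT, FLT3 and the PDGF receptors. Of 10 genes of these receptors and their ligands 6 were tested, 3 rose and 2 fell. That was 83.3% of those tested, beside 38.9% of all tested genes, and the median log2 fold change was 0.81. Pdgfb had 380.0, 339 and 355 CPM in NETs, against 48.7, 52.9 and 57.75 CPM in Veh, a 6.74-fold rise (adjusted p = 8.63e-15). Pdgfa rose 2.86-fold and Pdgfc 2.84-fold, so the PDGF ligand genes that were tested were all higher with NETs. The ligand genes of KIT and FLT3 were lower: Kitl 1.665-fold at 22.8 ± 0.199 CPM in NETs against 38.0 ± 2.90 CPM in Veh, and Flt3l 2.01-fold at 1.69 ± 0.236 CPM in NETs against 3.34 ± 0.565 CPM in Veh. Of the other receptors of the class only Pdgfra was tested, at 49.2 ± 2.13 CPM in NETs and 45.4 ± 3.37 CPM in Veh (adjusted p = 0.164). Kit, Flt3 and Pdgfrb had at most 4 counts in any library. The other colony-stimulating factors, Csf2 and Csf3, both fell, Csf2 1.61-fold to 5.72 ± 1.32 CPM in NETs against 9.17 ± 1.75 CPM in Veh and Csf3 2.22-fold. Their receptor genes Csf2ra and Csf3r had no count in any library.

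Transcription factors known to act at Csf1r in myeloid cells were in part absent, and those expressed moved both ways. Spi1, the gene of PU.1, had 4, 6 and 3 counts in NETs and 2, 2 and 4 counts in Veh, and Cebpa and Fli1 had none. Of 6 tested genes 3 rose and 1 fell (66.7% called, beside 38.9% of all tested genes). Ets2 rose 2.36-fold, at 265, 261 and 262 CPM in NETs against 109, 116 and 109 CPM in Veh (adjusted p = 2.37e-12). Runx1 rose 1.27-fold to 117 ± 0.172 CPM in NETs against 92.1 ± 3.47 CPM in Veh, and Cebpb 1.21-fold. Irf8, a factor of the monocyte lineage, was 3.05-fold lower at 5.155 ± 0.637 CPM in NETs, against 15.6 ± 0.337 CPM in Veh (adjusted p = 2.21e-09). The median log2 fold change was 0.31.

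Factors known at the Csf1 gene, the NF-kB, AP-1 and SP families among them, had log2 fold changes from -0.47 to 0.24. All 10 were tested, 2 rose and 2 fell (40.0% called, beside 38.9% of all tested genes). The median log2 fold change was -0.08. Nfkb2 rose 1.15-fold (adjusted p = 0.00222) and Jun was 1.38-fold lower at 63.4 ± 6.19 CPM in NETs against 87.4 ± 5.25 CPM in Veh. Nfkb1 had 167 ± 5.95 CPM in NETs and 169.7 ± 0.570 CPM in Veh, and Rela 119.9 ± 5.95 CPM in NETs and 127 ± 2.67 CPM in Veh, and neither passed. The call of Relb (0.24) ended under 4 of the 6 leave-one-out fits (NETs replicates 1 and 3, 0.19 each, Veh replicate 1, 0.24, and Veh replicate 3, 0.18). It also ended with scaling by library totals alone (0.17) or by the upper quartile (0.21). The call of Sp1 (-0.19) ended without NETs replicate 2 (-0.15) or Veh replicate 1 (-0.17).

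Genes that CSF1 induces in macrophages moved both ways. Of 10 tested genes 2 rose and 4 fell (60.0% called, beside 38.9% of all tested genes). The median log2 fold change was -0.44. Junb and Ets2 rose, Junb to 673.5 ± 42.3 CPM in NETs against 188 ± 22.9 CPM in Veh (3.58-fold). Jun, Ccnd1, Ccnd2 and Plau, the urokinase gene, fell, Ccnd2 1.37-fold to 127 ± 3.69 CPM in NETs against 174 ± 4.57 CPM in Veh. The immediate-early gene Egr1 varied widely between libraries, from 4.91 to 12.85 CPM in NETs and from 14.5 to 32.0 CPM in Veh. It leaned lower in NETs without overlap (log2 fold change -1.43), a pattern seen at 24.5% of all tested genes. It did not pass the test (adjusted p = 0.0973). DESeq2 (-1.41) and the replicate block (-1.44) called it lower. Egr2, at a low level, also leaned lower (-0.89) and did not pass (adjusted p = 0.0640), though some alternatives called it. Fos and Myc did not pass either.

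Genes by which carcinoma cells and macrophages act on each other also moved both ways. Egfr, the receptor for EGF that macrophages supply, rose 2.00-fold to 32.0 ± 0.493 CPM in NETs, against 16.0 ± 0.842 CPM in Veh (adjusted p = 3.99e-09). Vegfa rose 1.61-fold to 125 ± 7.68 CPM in NETs against 77.3 ± 5.05 CPM in Veh, and Cd47, which restrains phagocytosis, rose 1.24-fold. The chemokine genes Ccl5 and Cx3cl1 fell, Ccl5 1.90-fold to 17.2 ± 1.27 CPM in NETs against 32.7 ± 5.51 CPM in Veh, and Cx3cl1 1.29-fold. Ccl2, the monocyte attractant, had 1.18 ± 0.566 CPM in NETs and 1.15 ± 0.113 CPM in Veh and did not pass. Of 9 tested genes 3 rose and 2 fell (55.6% called, beside 38.9% of all tested genes). The median log2 fold change was 0.07.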

How the data were processed

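Poly(A) RNA libraries were made with a stranded kit from 3 NETs and 3 Veh samples, per the labels' protocols. The authors deposited whole-number counts per gene symbol with no normalisation. Alignment and counting tools named in the submitters' processing notes are STAR 2.7.10a, Subread 2.0.3 and featureCounts. Use of strand, pairing of reads and the annotation are not stated there or in the labels. Libraries held 31119105 to 64431811 counts. Small counts (1 to 20) were even in 74.8% to 78.4% of cases per library, so mates appear to have been counted singly, and the limit for a count of 0 was set at 6 counts (3 fragments). Gene lengths, as exon bases, are those of the deposited table, and RPKM was computed from them.

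Counts were scaled by TMM, filtered with filterByExpr (minimum count 10) and fitted with edgeR 4.0.16 (robust glmQLFit, glmQLFTest) in R 4.3.3, with the medium as the only term. Standard errors are the log2 fold change over the root of F. P-values set the difference between the media against the spread between libraries, which may be technical, and were adjusted over all 13956 genes. The pipeline was tested on simulated data. The chi-square per degree of freedom between replicates of a group was 9.76 to 25.55, so none was a duplicate. Mates counted singly raise this value, so it overstates the excess over counting noise. The 3 members, the 10 pathway lists and the 3 marker lists were chosen with earlier results of these data known. Named genes are the members, genes of these lists, genes within 100000 bases of a member and the 5 genes most like Csf1. The alternatives were RLE, upper-quartile and library-size scaling, no filter, a filter of 1 CPM in 3 libraries, DESeq2 1.42.0, halved counts, a replicate term and leaving out each library. Some genes of the lists enter the counts and are not reported here by name. Upstream promoters are from RefSeq (GRCm38.p6).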

Additional observations from a re-analysis of the deposited data

How the results depend on the processing

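Each of the 14 alternatives kept the direction of the log2 fold changes of Csf1, Csf1r and Il34. Scaled by library size alone, Csf1 moved to 0.81 and Il34 to -0.27, and the share of higher calls among all calls was 35.9%, against 52.0% with TMM. Leaving out each library gave 0.85 to 0.91 for Csf1, 1.68 to 1.77 for Csf1r and -0.22 to -0.15 for Il34, 4321 to 5181 called genes, and 19 to 23 pathway genes higher and 15 to 19 lower. Of 40 called pathway genes 33 kept the call under every alternative run and 7 lost it under at least 1, among them Src, Plcg1, Dok1, Frmd8, Relb and Sp1. Library size alone ended the calls of Plcg1 (0.09), Src, Frmd8 and Relb, and upper-quartile scaling that of Relb. Another 10 genes gained a call in at least 1. No called gene changed direction. Libraries with the same replicate number had deviations that correlated with r of 0.118, -0.0593 and 0.0564 across genes, so the numbers were not taken to pair them. With the replicate block 5682 genes were called, against 5430 without it, 24 pathway genes were higher and 20 lower, and the log2 fold changes of Csf1, Csf1r and Il34 were 0.88, 1.74 and -0.19. Genes under about 10 counts were too shallow to test.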
